A study of Mus musculus with 6 samples.

Results

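The 10 genes of the NRF2 pathway and its antioxidant enzymes were read in the osteoclast RNAseq of WT and *Slc37a2* KO mice, and none of them was called different between the genotypes. They were chosen by symbol, from a list drawn up by name, out of 22601 genes listed in the count table. Earlier results of these data were known when the list was drawn up. All 10 were detected in all 6 libraries and all 10 passed the filter on low counts, which left 13483 genes for testing. The 10 genes are *Nfe2l2* and *Keap1* (the regulator and its inhibitor), *Nqo1* (quinone reduction), *Gclc* and *Gclm* (glutathione synthesis), *Txnrd1*, *Srxn1* and *Prdx1* (the thioredoxin and peroxiredoxin system), and *Sod2* and *Cat* (superoxide and peroxide removal).

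The libraries were 3 WT (animals K090, L080 and L082) and 3 *Slc37a2* KO (animals K089, L078 and L081), and every value below follows this order. *Slc37a2* encodes a sugar phosphate transporter family protein that the study placed on the secretory lysosomes of osteoclasts. The knockout mice were homozygous for the *Slc37a2* tm2a(KOMP)Wtsi gene-trap allele, raised from a single embryonic stem cell clone, and kept on the C57BL/6N background with WT littermates as controls. The trap was carried by every cell, not by osteoclasts alone. According to the sample labels, bone marrow macrophages of both genotypes were cultured over 5 days to form osteoclasts. The cultures held RANKL (10 ng/ml) and M-CSF (2 ng/ml). Every column heading gives an age of 11 weeks and the letter F, taken here to mean female. The Results of the study also describe its RNAseq as done on osteoclasts. Its RNAseq methods instead describe RNA from whole bones, so the source of the RNA differs between the sources used here. Library totals ran from 27552183 to 42522292 counts, and levels are given as CPM, the counts of a gene scaled to a common library total. *Slc37a2*, the targeted gene, stood at 2149 ± 292 CPM in WT and 38.1 ± 6.66 CPM in *Slc37a2* KO (SD, n = 3 each), with a log2 fold change of -5.82 (SE 0.20, adjusted p = 7.07e-04, edgeR's quasi-likelihood test, adjusted after Benjamini and Hochberg across all tested genes). It was the 1 gene of 13483 called at an adjusted p below 0.05.

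The marker genes matched the osteoclast label. The 12 osteoclast genes (such as *Acp5*, *Ctsk* and *Mmp9*) were all detected and summed to 42569 to 60856 CPM in WT and 47187 to 74600 CPM in *Slc37a2* KO. The 9 macrophage genes were all detected too, at 3469 to 7294 CPM in WT and 3256 to 6730 CPM in *Slc37a2* KO. The 7 stromal genes summed to 569 to 1826 CPM over the 6 libraries. Of 6 neutrophil genes 5 were listed and summed to at most 1.27 CPM, and of 8 red cell genes 2 were listed and summed to at most 0.255 CPM. Libraries of both genotypes stood apart by their macrophage genes. These summed to 7294 CPM in WT K090, 6508 CPM in WT L080 and 6730 CPM in KO L078, and to 3469 CPM in WT L082, 3256 CPM in KO K089 and 3671 CPM in KO L081.

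NRF2, the protein made from *Nfe2l2*, is a transcription factor that switches on genes protecting the cell from oxidants and reactive chemicals. In resting cells KEAP1 holds NRF2 and hands it to a ubiquitin ligase for destruction, and oxidants that modify KEAP1 let NRF2 build up and enter the nucleus, where it binds antioxidant response elements as a dimer with a small MAF protein. Much of this control acts on the protein, so the *Nfe2l2* and *Keap1* transcripts do not measure NRF2 activity, and the transcripts of target genes are the usual readout. In osteoclasts reactive oxygen species act as signals downstream of RANKL, and NRF2 is known to restrain osteoclast formation.

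The antioxidant response element is the sequence through which NRF2 reaches its targets, so the promoter matches are shown first. The letters TGACNNNGC (N is any base) were searched on both strands, with GCNNNGTCA as the form on the opposite strand, in RefSeq windows of GRCm38.p6 that run from 250 bases before to 50 bases after each start site. Windows were given for 9 of the 10 genes, and *Gclc* had none. The letters were found for 5 of these 9 genes (55.6%), beside 14% of 27025 genes with a window. The windows that held them are shown as 29 bases each on the strand of the gene, 5′ to 3′, with the match in capitals.
Nfe2l2: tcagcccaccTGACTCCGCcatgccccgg
Gclm: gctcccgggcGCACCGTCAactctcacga
Txnrd1: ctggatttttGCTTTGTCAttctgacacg
Srxn1: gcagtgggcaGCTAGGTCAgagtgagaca
Prdx1: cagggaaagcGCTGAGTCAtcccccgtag

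The *Nfe2l2* match lay on the minus strand of chromosome 2 (chr2:75704885-75704913), 240 bases before the RefSeq start site, and was the one match that read on the strand of its gene. The other 4 matches lay on the strand opposite to their genes, which all run on the plus strand. They began 134 bases before the start site of *Gclm* (chr3:122245413-122245441), 92 bases before 1 of 3 start sites of *Txnrd1* (chr10:82859104-82859132), 28 bases after that of *Srxn1* (chr2:152105542-152105570) and 133 bases before that of *Prdx1* (chr4:116685456-116685484). The stricter letters TGACTCAGC, or GCTGAGTCA on the opposite strand, were found in *Prdx1* alone among the 9 genes, beside 0.503% of all genes, and every stricter match is also a match of the looser letters. A match describes the sequence and not a bound site. The windows of *Keap1*, *Nqo1*, *Sod2* and *Cat* held no match, which says only that these letters were not in those 300 bases.

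The comparison of genotypes asked whether loss of *Slc37a2* moved the antioxidant transcripts of osteoclasts. None of the 10 genes was called at an adjusted p below 0.05, where 0.00742% of all tested genes were called (adjusted p = 0.969 for each of the 10, edgeR's quasi-likelihood test, Benjamini-Hochberg adjusted). At an unadjusted p below 0.05, the same test gave 0 of the 10, beside 0.712% of all genes. That share lies under the nominal proportion of 0.05. So few genes passed in these libraries that the 0 does not show an absence of change. DESeq2's Wald test and edgeR's likelihood ratio test also called 0 of the 10, beside 0.0148% of all genes in each. In 0 of the 10 did the 3 *Slc37a2* KO libraries lie wholly above or below the 3 WT libraries, beside 4.31% of all genes. For all 10, the 95% interval of the log2 fold change lay within -1 to 1, as it did for 78.6% of all genes. The count was 9 of 10 with total counts alone as the scaling (76.7% of all genes) and without WT K090 (74.3%), WT L082 (72.1%) or KO L078 (73.4%), and 10 of 10 under the other alternatives. The estimates were below 0 for 8 genes and above 0 for *Txnrd1* and *Sod2*, with a median of -0.11. Over all 13483 genes, 7584 estimates were below 0 and 5899 above it, with a median of -0.02. Because these are bulk libraries, fewer cells of a type and less RNA per cell cannot be told apart.

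**Figure D1:**
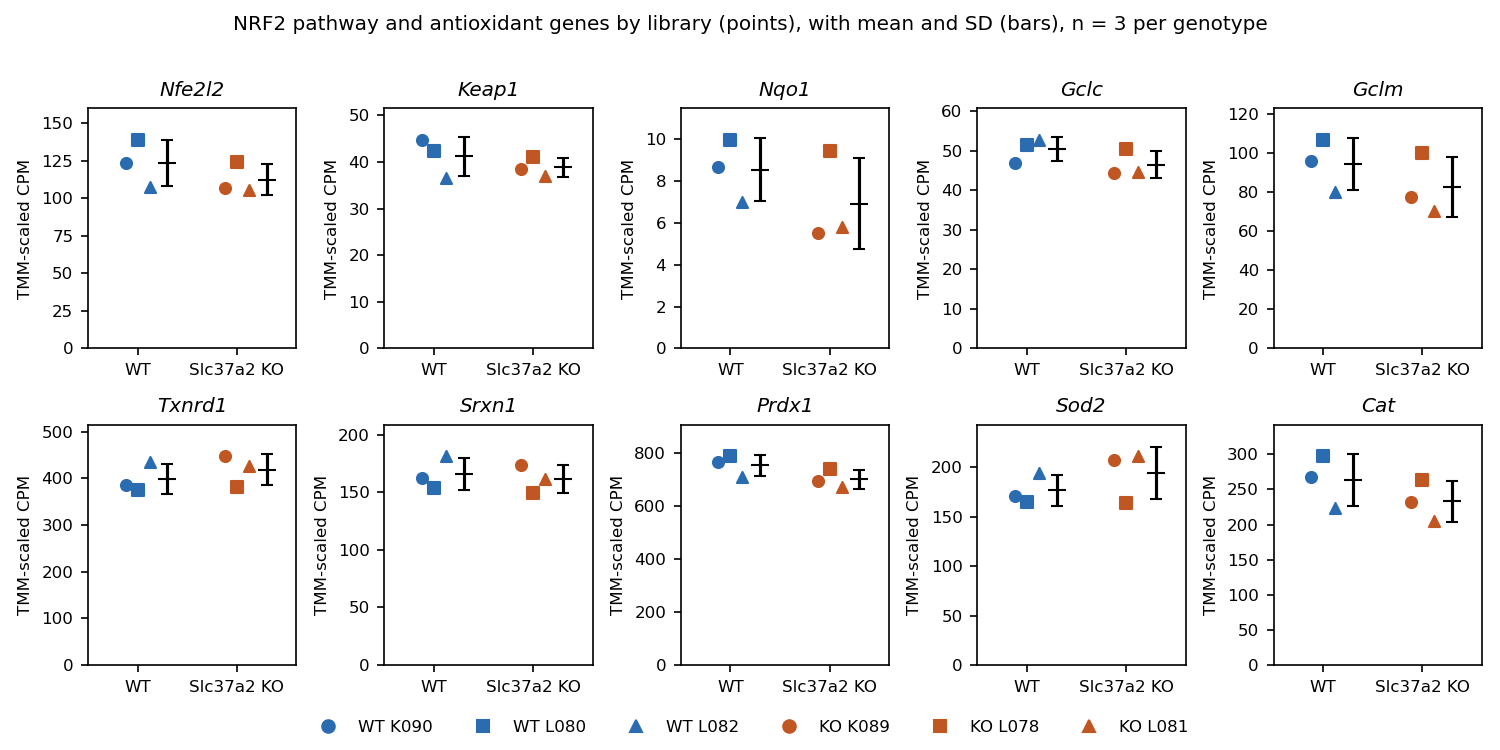
TMM-scaled CPM (y axes, starting at 0) of each of the 10 genes in every library, with WT in blue and *Slc37a2* KO in orange, one marker shape per animal, and black bars for the mean and SD (n = 3). In every panel the genotypes overlap, and in *Nqo1* the KO library L078 sits at 9.41 CPM while the other KO libraries sit at 5.50 and 5.80 CPM.

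CPM of single genes were TMM-scaled, which corrects each library total for differences in composition. *Nfe2l2* (chr2:75675513-75704641, minus strand) measured 124, 139 and 108 CPM in WT and 107, 124 and 106 CPM in *Slc37a2* KO. WT L080 was the highest, and KO L078 equalled WT K090 at this rounding, so the genotypes overlapped. The means were 124 ± 15.6 CPM in WT and 112 ± 10.3 CPM in *Slc37a2* KO, with a log2 fold change of -0.14 (SE 0.11, 95% interval -0.41 to 0.14). *Keap1* (chr9:21229730-21239361, minus strand), the adaptor that keeps NRF2 low, measured 44.7, 42.3 and 36.5 CPM in WT and 38.5, 41.1 and 37.0 CPM in *Slc37a2* KO. The lowest of the 6 values was a WT library and all 3 KO values lay within the WT range. The log2 fold change of *Keap1* was -0.08 (SE 0.09, 95% interval -0.31 to 0.14). Of the merged exons of *Keap1*, 510 bases (10.9%) are shared with *Gm16754*, an antisense gene, and whether the counting used strand is not given in the sources used here.

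Transcripts of the regulator and of its inhibitor kept a similar ratio. Per kilobase of exon, *Nfe2l2* stood at 3.42, 4.07 and 3.65 times *Keap1* in WT and at 3.44, 3.74 and 3.54 times in *Slc37a2* KO. The means of this ratio were 3.71 ± 0.327 in WT and 3.57 ± 0.156 in *Slc37a2* KO (SD, n = 3), and the KO values lay within the WT range.

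*Nqo1* (chr8:107388225-107403206, minus strand), an NADPH-dependent quinone reductase and a much used readout of NRF2, was the lowest per length and the most variable of the 10. It measured 8.67, 9.96 and 6.997 CPM in WT and 5.50, 9.41 and 5.80 CPM in *Slc37a2* KO. KO K089 and KO L081 were below all WT libraries, while KO L078 was above WT K090 and WT L082. The mean in *Slc37a2* KO (6.90 ± 2.17 CPM) was 80.8% of that in WT (8.54 ± 1.49 CPM), and the fitted log2 fold change was -0.30 (SE 0.25, 95% interval -0.91 to 0.31). The SD of its log2 CPM within genotypes was 0.35, at the 74.9th percentile of all genes. The lowest count was 150, in KO K089, with a 95% Poisson interval of 127 to 176, which covers counting error only.

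GCLC and GCLM, the catalytic and modifier subunits of glutamate-cysteine ligase, together set the rate of glutathione synthesis. *Gclc* (chr9:77754535-77794485, plus strand) measured 47.0, 51.4 and 52.7 CPM in WT and 44.2, 50.4 and 44.6 CPM in *Slc37a2* KO. KO K089 and KO L081 were the lowest, and KO L078 exceeded WT K090. The log2 fold change was -0.12 (SE 0.08, 95% interval -0.31 to 0.08). *Gclm* (chr3:122245557-122270732, plus strand) measured 96.3, 107 and 80.2 CPM in WT and 77.9, 100.1 and 70.5 CPM in *Slc37a2* KO. Again KO L078 lay inside the WT range and the other KO libraries lay below it. The log2 fold change of *Gclm* was -0.19 (SE 0.16, 95% interval -0.58 to 0.20). Small parts of the *Gclm* exons are shared with *Gm17494* on the opposite strand (4.71%) and with *Gm6061*, a pseudogene on the same strand (3.88%).

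The subunits did not keep a fixed ratio between libraries. Per kilobase of exon, *Gclm* stood at 1.23, 1.25 and 0.911 times *Gclc* in WT and at 1.05, 1.19 and 0.947 times in *Slc37a2* KO. The ratio was below 1 in WT L082 and KO L081, 1 library of each genotype, and its means (1.13 ± 0.188 in WT and 1.06 ± 0.121 in *Slc37a2* KO, SD, n = 3) differed by less than either SD.

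In the thioredoxin and peroxiredoxin system, PRDX1 reduces peroxides, sulfiredoxin (SRXN1) restores overoxidised peroxiredoxins, and thioredoxin reductase 1 (TXNRD1) keeps cytosolic thioredoxin reduced with NADPH. *Txnrd1* (chr10:82833951-82897712, plus strand) measured 386, 375 and 434 CPM in WT and 447, 381 and 427 CPM in *Slc37a2* KO. The highest value was KO K089 and the next was WT L082, and the log2 fold change was 0.07 (SE 0.09, 95% interval -0.16 to 0.30). *Srxn1* (chr2:152105516-152111376, plus strand) measured 162, 154 and 181 CPM in WT and 174, 149.7 and 161 CPM in *Slc37a2* KO. Its highest value was in WT and its lowest in *Slc37a2* KO, and its log2 fold change of -0.04 (SE 0.09, 95% interval -0.25 to 0.18) was the nearest to 0 of the 10. The sign of this estimate turned when WT L082 (0.06) or KO L078 (0.02) was left out. *Prdx1* (chr4:116685544-116700822, plus strand) measured 765, 788 and 708 CPM in WT and 693, 741 and 671 CPM in *Slc37a2* KO. KO L078 exceeded WT L082, and the log2 fold change was -0.10 (SE 0.08, 95% interval -0.30 to 0.09). *Prdx1* was the steadiest of the 10, with an SD of log2 CPM within genotypes of 0.08, at the 16.9th percentile of all genes.

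SOD2 turns superoxide into hydrogen peroxide in mitochondria, and catalase (CAT) breaks hydrogen peroxide down in peroxisomes. *Sod2* (chr17:13006846-13040063, plus strand) measured 171, 165 and 195 CPM in WT and 208, 164 and 211 CPM in *Slc37a2* KO. KO K089 and KO L081 were the highest and KO L078 was the lowest of the 6. The log2 fold change of *Sod2* was 0.13 (SE 0.12, 95% interval -0.16 to 0.42), the highest estimate of the 10. *Cat* (chr2:103453849-103485160, minus strand) measured 268, 297 and 224 CPM in WT and 232, 263 and 204 CPM in *Slc37a2* KO. Its KO libraries overlapped the WT range from below, with KO K089 and KO L078 above WT L082, and the log2 fold change was -0.17 (SE 0.14, 95% interval -0.50 to 0.16).

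Gene by gene, exact two-sided permutation tests over the 6 libraries gave p from 0.2 to 0.7. The smallest p this design of 3 against 3 allows is 0.1, so that test cannot pass 0.05. The limits of the fitted intervals show what sizes the libraries leave room for. The widest was that of *Nqo1* and the others lay within -0.58 to 0.42. The positions of the 10 genes are those of GENCODE M21 on GRCm38.

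**Figure D2:**
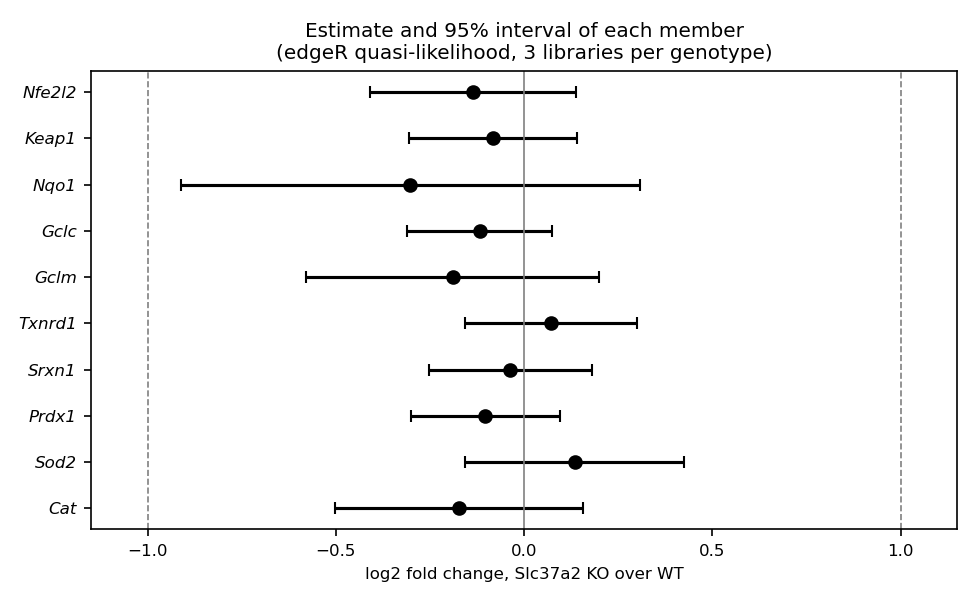
Log2 fold change between genotypes, *Slc37a2* KO over WT (x axis), for each of the 10 genes (y axis), as the estimate (point) with its 95% interval (bar) from edgeR's quasi-likelihood fit. All 10 intervals include 0 and lie between the dashed lines at -1 and 1, and that of *Nqo1* is the widest (-0.91 to 0.31).

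The spread of the 10 genes within a genotype had an order shared by several of them. Order here means which 3 libraries held the 3 highest levels, whatever their ranks within the 3. *Nfe2l2*, *Keap1*, *Nqo1*, *Gclm*, *Prdx1* and *Cat* had their 3 highest levels in the same 3 libraries, WT K090, WT L080 and KO L078. These were also the 3 libraries with the highest macrophage sums. The 12 interferon response genes had the same 3 libraries at the top, with sums of 330, 215 and 120 CPM in WT and 102, 248 and 134 CPM in *Slc37a2* KO. *Txnrd1* and *Sod2* had the other order, with their 3 highest levels in WT L082, KO K089 and KO L081. These 3 libraries held the highest osteoclast sums (60856, 74600 and 68235 CPM, against 42569 CPM in WT K090, 55155 CPM in WT L080 and 47187 CPM in KO L078). *Gclc* and *Srxn1* had neither order. The 3 highest levels of *Gclc* were in WT L080, WT L082 and KO L078, which also had the highest stromal sums. The stromal sums were 809, 1187 and 1521 CPM in WT and 626, 1826 and 569 CPM in *Slc37a2* KO. The 3 libraries with the highest macrophage sums held the 3 highest levels in 60% of the 10 genes, beside 22.6% of all tested genes. The order of *Txnrd1* and *Sod2* was held by 20%, beside 20.8% of all tested genes. These shares were not tested against each other. The part of cell composition in the levels of the 10 genes was not tested.

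The library differences are shown for *Nqo1* and *Gclm*, which varied most of the 10 genes, and for *Sod2*, which had the other order. Relative to its own mean over the 6 libraries on the log2 scale, *Nqo1* stood at 0.20, 0.40 and -0.10 in WT and at -0.45, 0.32 and -0.37 in *Slc37a2* KO. *Gclm* stood at 0.14, 0.29 and -0.13 in WT and at -0.17, 0.19 and -0.31 in *Slc37a2* KO. *Sod2* ran the other way, at -0.11, -0.16 and 0.08 in WT and at 0.17, -0.17 and 0.20 in *Slc37a2* KO. In these values KO L078 sat with WT K090 and WT L080, and WT L082 sat with KO K089 and KO L081. Over the 6 libraries the highest level was 1.81 times the lowest for *Nqo1*, 1.52 times for *Gclm* and 1.45 times for *Cat*, and 1.17 times for *Prdx1*. The median of this ratio was 1.26 over the 10 genes and 1.34 over all tested genes.

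**Figure D3:**
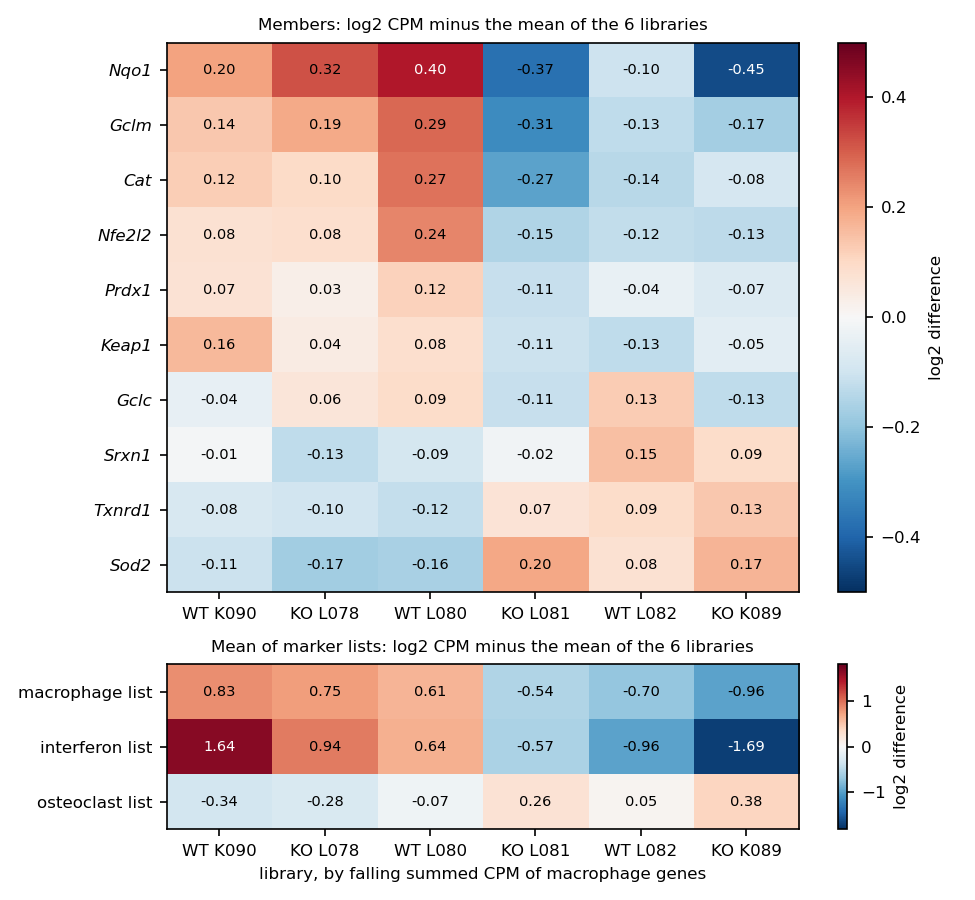
Upper panel, log2 CPM of each of the 10 genes (rows) minus its mean over the 6 libraries, with the libraries in columns by falling summed CPM of the macrophage genes, and red for higher and blue for lower. Lower panel, the same difference averaged over the macrophage, interferon response and osteoclast lists, where 6 of the 10 genes share the sign of the macrophage list in all 6 libraries and *Txnrd1* and *Sod2* have the opposite sign.

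The 3 libraries with the highest macrophage sums were 2 of WT and 1 of *Slc37a2* KO. Leaving out single libraries moved the genotype estimates without bringing a call. Without KO L078, the log2 fold change was -0.60 for *Nqo1*, -0.35 for *Gclm*, -0.27 for *Cat*, -0.22 for *Nfe2l2* and 0.24 for *Sod2*, each farther from 0 than with all 6 libraries. In that fit 4 of the 10 genes (*Nqo1*, *Gclc*, *Gclm* and *Sod2*) had an unadjusted p below 0.05, beside 20.1% of all genes, and 6 did not overlap between genotypes, beside 41.6% of all genes. None was called, and the lowest adjusted p among them was 0.227 (edgeR's quasi-likelihood test, Benjamini-Hochberg adjusted). Other libraries, when left out, brought the estimates nearer to 0. *Nqo1* was at -0.14 without KO K089, *Gclm* at -0.07 and *Cat* at -0.07 without KO L081, *Nfe2l2* at -0.04 and *Sod2* at 0.09 without WT L080. The remaining genes ran over the 6 fits from -0.14 to -0.02 for *Keap1* (lowest without WT L082 and highest without WT K090), from -0.18 to -0.06 for *Gclc* (without KO L078 and without WT L082), from -0.14 to -0.05 for *Prdx1* (without KO L078 and without KO L081) and from 0.03 to 0.16 for *Txnrd1* (without WT L080 and without WT L082). Without WT L082, 3 of the 10 did not overlap, beside 16.4% of all genes, and without WT K090 it was 1, beside 9.43%.

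Levels were compared between genes per kilobase of merged exon, since a longer transcript gives more fragments. *Prdx1* was the most abundant at 239 ± 14.6 CPM per kilobase (mean ± SD over the 6 libraries), followed by *Cat* at 94.98 ± 13.02. *Srxn1* (58.1 ± 4.24) and *Txnrd1* (57.6 ± 4.41) came next and did not differ beyond their spread, with *Srxn1* the higher in 3 of 6 libraries. *Nfe2l2* followed at 31.1 ± 3.51 and lay below *Txnrd1* and above *Sod2* in all 6 libraries. *Sod2* (18.5 ± 2.16), *Gclm* (14.1 ± 2.30) and *Gclc* (12.8 ± 0.964) overlapped as neighbours, with *Sod2* above *Gclm* in 5 of 6 libraries and *Gclm* above *Gclc* in 4 of 6. *Keap1* (8.53 ± 0.687) and *Nqo1* (4.97 ± 1.22) were the lowest and did not overlap each other. The peroxide-removing enzymes *Prdx1* and *Cat* therefore headed the order and the quinone reductase ended it, in both genotypes. The transcript set decides some places in this order. With GENCODE's basic transcripts, a choice made after seeing the data, *Txnrd1* took the second place at 100.2 CPM per kilobase and exceeded *Cat* in 3 of 6 libraries. *Nfe2l2* then stood at 47.7 and *Sod2* at 31.7 CPM per kilobase, in the same places of the order.

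**Figure D4:**
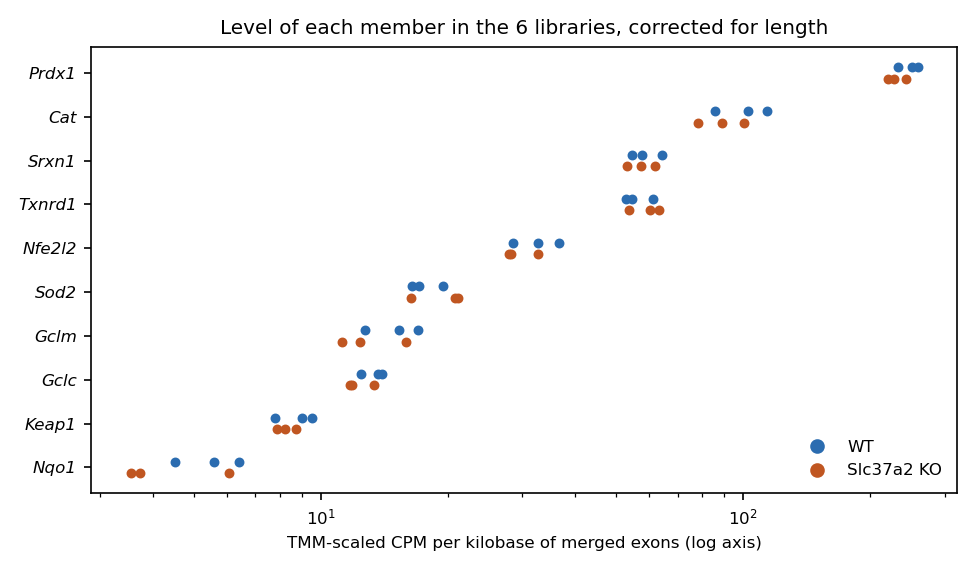
TMM-scaled CPM per kilobase of merged exons (x axis, log scale) of each of the 10 genes (y axis), with a point for each library, WT in blue and *Slc37a2* KO in orange. *Prdx1* lies near 239 and *Nqo1* near 4.97, and the points of *Srxn1* and *Txnrd1* share the same range.

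A wider list of 78 genes of the pathway and its neighbours gave no call either. All 78 were listed and 77 were tested, since *Nfe2l3* had at most 4 counts in a library. The test called 0 of 77 at an adjusted p below 0.05, beside 0.00742% of all tested genes (edgeR's quasi-likelihood test, Benjamini-Hochberg adjusted). At an unadjusted p below 0.05 the same test gave 0 of 77, beside 0.712% of all tested genes. With shares this small, the counts of 0 do not show an absence of change. Estimates were above 0 for 37 genes and below 0 for 40, with a median of -0.02, equal at this rounding to that of all genes. *Nnt*, a mitochondrial enzyme that makes NADPH, was the 1 gene of 77 whose genotypes did not overlap, beside 4.31% of all tested genes. It measured 61.2, 61.5 and 59.4 CPM in WT and 57.5, 57.6 and 59.3 CPM in *Slc37a2* KO. WT L082 and KO L081 were nearly equal, and the log2 fold change was -0.06 (SE 0.05, 95% interval -0.18 to 0.06).

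Of the genes with the lowest estimate in each of the 7 roles, 4 (*Hmox1*, *Mgst1*, *G6pdx* and *Bach1*) followed the macrophage order. The share of all tested genes with that order was 22.6%. *Prdx4*, *Sod3* and *Aox1* did not follow it, and the top libraries of *Sod3* and *Aox1* were those of the highest stromal sums. All 7 were picked for low estimates, which favours orders headed by WT libraries. The count is therefore no separate result. *Hmox1*, heme oxygenase 1 and a classical NRF2 target that BACH1 represses, measured 218, 228 and 107 CPM in WT and 85.1, 188 and 88.0 CPM in *Slc37a2* KO. Its log2 fold change was -0.61, with a 95% interval of -1.61 to 0.38, and 1 library of each genotype sat far from the others of its genotype. *Mgst1*, a microsomal glutathione transferase, measured 14.3, 15.8 and 4.49 CPM in WT and 3.30, 15.2 and 4.42 CPM in *Slc37a2* KO, with a log2 fold change of -0.58 (95% interval -2.27 to 1.102). *G6pdx*, the entry enzyme of the pentose phosphate pathway and a source of NADPH, measured 148, 132 and 84.6 CPM in WT and 74.8, 129 and 85.2 CPM in *Slc37a2* KO, with a log2 fold change of -0.33 (95% interval -0.99 to 0.33). In *Hmox1*, *Mgst1* and *G6pdx* WT L082 lay with KO K089 and KO L081 and KO L078 lay with the other WT libraries.

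By role, the 10 regulators had the narrowest range of log2 fold changes, from -0.13 for *Bach1* (a repressor of antioxidant response elements) to 0.07 for *Maff* (a small MAF partner), and 8 of 10 estimates were above 0. Of 19 glutathione genes 12 were above 0, and their estimates ran from -0.58 for *Mgst1* to 0.24 for *Gss*, glutathione synthetase. The 16 thioredoxin and peroxiredoxin genes ran from -0.23 for *Prdx4*, the peroxiredoxin of the endoplasmic reticulum, to 0.14 for *Prdx3*, that of mitochondria. *Sod1*, the cytosolic superoxide dismutase, was at 0.04 and *Sod3*, the extracellular one, at -0.85, from levels of at most 0.899 CPM (95% interval -1.82 to 0.13). The 8 NADPH genes ran from -0.33 for *G6pdx* to 0.12 for *Idh2*, a mitochondrial isocitrate dehydrogenase. The 7 heme and iron genes ran from -0.61 for *Hmox1* to 0.14 for *Ftl1*, the ferritin light chain. The 14 quinone and xenobiotic genes ran from -0.73 for *Aox1*, an aldehyde oxidase at 1.73 CPM or less in every library, to 0.21 for *Osgin1*, an oxidative stress-induced growth inhibitor. None of these roles held a called gene, where 1 of all 13483 tested genes was called. Every adjusted p in the wider list was at least 0.969 (edgeR's quasi-likelihood test, Benjamini-Hochberg adjusted).

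The same orders of libraries were counted in the wider list. Of its 77 tested genes, 19 (24.7%) had their 3 highest levels in WT K090, WT L080 and KO L078, and 16 (20.8%) in WT L082, KO K089 and KO L081. These shares were near the 22.6% and 20.8% of all tested genes. *Slc7a11*, the cystine importer that feeds glutathione synthesis, and *Bach1* followed the first order, and *Gss*, *Gpx4*, *Txn1* and *Ftl1* followed the other. *Slc7a11*, *Gpx4* and *Txn1* were named after their values were seen, and *Bach1*, *Gss* and *Ftl1* for the lowest or highest estimate of their role. The letters of the antioxidant response element were found for 15 of 66 genes of the wider list with a window (22.7%), beside 14% of all genes. The stricter letters were found for 3 of the 66 (4.55%), beside 0.503% of all genes.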

How the data were processed

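The data were RNAseq counts from 3 libraries of each genotype, WT and *Slc37a2* KO. The authors deposited whole-number counts for 22601 genes by symbol, not normalized, beside the columns of their own edgeR comparison (log2 fold change, mean log2 CPM, likelihood ratio, p and FDR), which were not used. The submitters' processing notes name bcl2fastq 2.20.0.422, edgeR 3.30.3 and the mm10 build, which is GRCm38. Not given in the sources used here are the aligner, the counting tool, the strand setting and the annotation. Columns were assigned to genotypes by their headings, and 0 columns belonged to other samples. The replicates are separate animals by their headings.

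Tests were run with edgeR 4.0.16 and DESeq2 1.42.0 (R 4.3.3), and sequences and figures were handled with Python 3.11.15. Genes were filtered with filterByExpr, scaled with TMM and fitted with glmQLFit and glmQLFTest over 13483 genes with genotype as the term. P-values were adjusted by Benjamini-Hochberg over all of them. Intervals are 95% intervals from the estimate and its standard error. The steps were tested on simulated data with known answers. Exon lengths came from all GENCODE M21 transcripts, and may differ from the models the authors counted with. Marker sums are CPM before TMM scaling. With totals of 27552183 to 42522292 counts, the lowest count of any of the 10 genes was 150.

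The 10 genes and all lists were chosen with earlier results of these data known. Named from the wider list were, in each role, the genes with the highest and the lowest log2 fold change, and any gene called or with genotypes that did not overlap. The fit was repeated with DESeq2's size factors, upper quartile scaling, total counts alone, no filter, at least 1 CPM in 3 libraries, the likelihood ratio test, DESeq2's Wald test, a term for the first letter of the animal number, and each library left out in turn. Correlations between genes were planned but are not given, because the libraries fell into separate sets of 3 by their macrophage genes.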

Additional observations from a re-analysis of the deposited data

How the results depend on the processing

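The count of the 10 genes called stayed at 0 under every alternative tried, as did that of the wider list. Of 140 refitted log2 fold changes of the 10 genes, 138 kept their direction and side of the threshold. The 2 that reversed were those of *Srxn1* without WT L082 (0.0576) and without KO L078 (0.0158), and its values with a library left out ran from -0.0875 to 0.0576. Under the scaling, filter and test alternatives, and with the term for the letter, 8 genes were lower and 2 higher, as in the analysis reported. Total counts alone moved the median of all genes by -0.05 on the log2 scale. With a library left out, 0 to 4 of the 10 genes had an unadjusted p below 0.05 (edgeR's quasi-likelihood test). Those whose genotypes did not overlap numbered 0 to 6. Both counts were highest without KO L078, where the shares of all genes were 20.1% and 41.6%. In the wider list, the genes whose genotypes did not overlap numbered 0 with upper quartile scaling (3.98% of all genes), 2 with no filter (4.48%), and 1 (without KO K089, 6.91%) to 38 (without KO L078, 41.6%) with a library left out. Over all genes, 1 or 2 were called under each alternative. The stricter motif was held by 1 of the 9 genes with a window, beside 0.503% of all genes. Exon length from basic transcripts, an alternative added after seeing the data, moved the level per kilobase by more than its spread for 5 of 10 genes. The causes were not tested. With 3 libraries per genotype and little borrowed information between genes (prior degrees of freedom 2.35), the intervals leave room for changes of the sizes given beside each gene. No paired analysis was possible because the columns carry no replicate number.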
